A study of Mus musculus with 10 samples.

Results

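The 4 neurons described here are the Dbx1-derived inspiratory neurons of the preBötzinger complex (preBötC) in the series, 4 of its 10 single-cell transcriptomes. They were chosen by their labels alone: sample 1 is the only Type-2 neuron, and samples 5, 6 and 7 are the Type-1 neurons of the same Dbx1;Ai148 cross. In that cross Cre recombinase driven by the Dbx1 promoter switches on the fluorescent calcium indicator GCaMP6f, so that neurons whose precursors expressed Dbx1 glow with each inspiratory burst and can be picked by eye. The mice had a C57Bl/6J or mixed C57Bl/6J and CD1 background. The Type-2 neuron and sample 5 were recorded at postnatal day 0 (P0), and samples 6 and 7 at P3. Each library is the content of 1 neuron drawn into a patch pipette after recording in a slice kept rhythmic in raised potassium, and the labels name no animal. The remaining neurons came from CD-1 wild-type mice and carry no Dbx1 reporter: the Type-1 neuron sample 4 (P3), and the neurons of Unknown type, samples 3 and 8 (P0), 10 (P1), and 2 and 9 (P2). The legends of the study's expression figures assign the mouse lines to other sample numbers than the labels do, and the labels were used.

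Each breath in is set off by a burst of activity in preBötC neurons. Its Type-1 neurons start to depolarise early before each burst and carry an A-type potassium current, which delays firing, and they are taken to be the rhythmogenic class. Type-2 neurons start late, lack the delay and carry the h-current, a cation current opened by hyperpolarisation that produces a sag in the voltage trace, and they are thought to shape motor output. Most Dbx1-derived preBötC neurons are glutamatergic and pack glutamate into vesicles with the transporter VGLUT2, while inhibitory neurons make GABA with glutamate decarboxylase or take up glycine with GlyT2. The class of each neuron was read from its voltage traces, which are not part of the expression tables, so the class cannot be checked against a marker gene here.

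Fragments counted on genes numbered 21392146 in the Type-2 neuron and 36629393, 31488280 and 25681679 in samples 5, 6 and 7. At 1 FPKM or more (fragments divided by gene length in kilobases and scaled to 1e+06 fragments in all) the Type-2 neuron had 5065 genes, against 9223, 8817 and 8720 in the Type-1 neurons. At 100 FPKM or more it had 786 genes, against 557, 582 and 609. The Type-2 transcriptome thus held fewer detected genes and more very abundant ones than each of the 3 Type-1 transcriptomes. By the study's own account the amplified cDNA of this neuron was among the least concentrated of the series. Neuronal identity was measured in all 4 libraries: 8 of 10 neuron markers reached 1 FPKM in the Type-2 neuron and 10, 10 and 9 in samples 5, 6 and 7, although their summed level was 804 FPKM in the Type-2 neuron and 3518, 2310 and 2990 FPKM in the Type-1 neurons.

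With 1 neuron on one side there is no replicate check, so the differences below carry neither a test nor a p-value. A gene was placed above the Type-1 range when log2(FPKM + 1) in the Type-2 neuron exceeded the highest Type-1 neuron by at least 2 (4-fold on that scale, which understates differences of low genes), and below the range when it lay at least 2 under the lowest. Of the 13089 genes that reached 1 FPKM in any of the 4 neurons, 963 (7.36%) were above by this rule and 2109 (16.1%) below. At any size of difference, 2828 genes (21.6%) lay above the 3 Type-1 neurons, 4881 (37.3%) below and 5380 (41.1%) inside their range. Distances quoted for single genes are on the log2(FPKM + 1) scale, from the Type-2 neuron to the nearest Type-1 neuron. Limits given with a fragment count are 95% exact Poisson limits. The reads carry no molecular identifiers, so these limits cover counting error only.

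**Figure D1:**
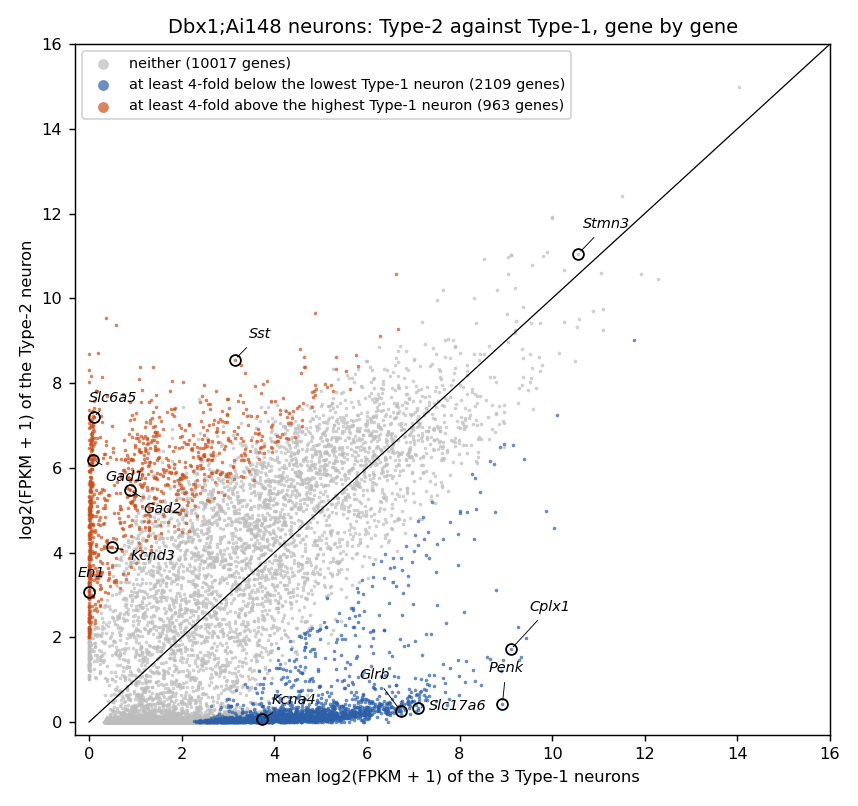
Each point is 1 of 13089 genes, with the mean log2(FPKM + 1) of the 3 Type-1 neurons on the horizontal axis and log2(FPKM + 1) of the Type-2 neuron on the vertical axis. The 963 orange genes lie at least 4-fold above the highest Type-1 neuron, the 2109 blue genes at least 4-fold below the lowest, and the black line marks equal values. Most blue genes sit along the bottom of the plot, with little or no signal in the Type-2 neuron.

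Transmitter genes lay on opposite sides of the Type-1 range. The Type-2 neuron held the transcripts that make or take up GABA and glycine and almost none of the vesicular glutamate transporter, while the 3 Type-1 neurons showed the opposite. Promoters of Slc6a5, Gad1 and Slc17a6 are shown first because these genes carry that contrast, and that of Kcna4 because it was the A-type current gene below the range. Each sequence is 250 bases before and 50 after a RefSeq start site on GRCm38.p6, plus strand, and capitals mark matches, on either strand, to 4 motifs that were searched. The TATA box was searched as TATAAA. The core site of homeodomain factors was searched as TAATTA, the E-box of basic helix-loop-helix factors as CAGCTG, and the GC box as GGGCGG, and no match shown overlaps another. Slc6a5 lies at chr7:49910049-49910348, Gad1 at chr2:70561879-70562178, Slc17a6 at chr7:51621580-51621879 and Kcna4 at chr2:107290339-107290638.
Slc6a5: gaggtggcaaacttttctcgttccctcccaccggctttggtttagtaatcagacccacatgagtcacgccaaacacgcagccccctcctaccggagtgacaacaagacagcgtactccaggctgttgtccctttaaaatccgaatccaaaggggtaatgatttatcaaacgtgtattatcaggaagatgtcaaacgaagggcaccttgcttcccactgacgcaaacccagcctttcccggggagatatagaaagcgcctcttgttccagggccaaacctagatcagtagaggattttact
Gad1: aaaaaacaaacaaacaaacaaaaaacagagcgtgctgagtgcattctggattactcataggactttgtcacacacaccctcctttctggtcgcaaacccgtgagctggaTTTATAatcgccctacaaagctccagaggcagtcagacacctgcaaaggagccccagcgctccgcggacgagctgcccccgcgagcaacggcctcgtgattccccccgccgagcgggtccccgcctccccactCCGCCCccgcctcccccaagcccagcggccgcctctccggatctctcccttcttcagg
Slc17a6: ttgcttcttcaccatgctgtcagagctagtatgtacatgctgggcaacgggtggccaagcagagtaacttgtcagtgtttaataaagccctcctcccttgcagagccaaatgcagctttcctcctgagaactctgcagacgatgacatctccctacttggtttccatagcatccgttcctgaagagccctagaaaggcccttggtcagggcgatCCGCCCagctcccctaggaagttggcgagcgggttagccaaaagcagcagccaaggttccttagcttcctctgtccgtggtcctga
Kcna4: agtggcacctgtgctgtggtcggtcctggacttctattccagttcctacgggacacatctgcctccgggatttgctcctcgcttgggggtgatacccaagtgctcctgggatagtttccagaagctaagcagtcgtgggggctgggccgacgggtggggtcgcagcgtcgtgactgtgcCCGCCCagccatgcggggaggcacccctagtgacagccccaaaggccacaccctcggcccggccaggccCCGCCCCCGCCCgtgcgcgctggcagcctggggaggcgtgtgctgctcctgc
Gad1 held 1 TATA box and 1 GC box, Slc17a6 held 1 GC box, Kcna4 held 3 GC boxes and the Slc6a5 window held none of the 4 motifs. The table holds a second window for Slc6a5, which also held none, and for Slc17a6, chr7:51624387-51624686, which held 1 homeodomain core and no GC box, and neither is printed. Of 32851 promoters of this length in the RefSeq table, 13.6% held the TATA box, 5.29% the homeodomain core, 16.3% the E-box and 35.7% the GC box. These are descriptions of letters in a window and say nothing of what binds there.

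Slc6a5, which encodes the glycine transporter GlyT2 of glycinergic terminals, was at 146 FPKM in the Type-2 neuron and at 0.0417, 0 and 0.178 FPKM in samples 5, 6 and 7. In fragments this is 22465 against 11, 0 and 33. The groups were far apart, with a distance of 6.96. Gad1, which encodes the larger glutamate decarboxylase, stood at 71.8 FPKM against 0.0179, 0 and 0.194 (distance 5.93). Gad2, its smaller partner, was at 43.5 FPKM against 0, 0.0054 and 5.14, so sample 7 also held some Gad2. In the same list Slc32a1, the vesicular transporter that loads both GABA and glycine, had 1 fragment in the Type-2 neuron (limits 0.0253 to 5.57) and none in the Type-1 neurons, which makes it undetectable at this depth in all 4. Slc6a9, the glycine transporter GlyT1, was inside the range at 0.0364 FPKM against 4.13, 0 and 4.36. Of the 5 measured members of the list, 4 (80%) were above the range and 0 below, beside 7.36% and 16.1% of all genes. The median difference from the Type-1 mean was 4.60, where the median over all 13089 genes was -1.06.

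Slc17a6, the gene of VGLUT2, went the other way, at 0.26 FPKM in the Type-2 neuron and 101, 158 and 156 FPKM in samples 5, 6 and 7 (distance -6.35). The Type-2 library held 30 of its fragments (limits 20.2 to 42.8), against 20057, 26837 and 21563. The Type-1 values spanned less than 2-fold, and the Type-2 value lay far under all 3. The remaining transporters of this family, Slc17a7 and Slc17a8, had no fragment in any of the 4. Slc38a1, a glutamine transporter that feeds both GABA and glutamate synthesis, was at 21.4 FPKM against 4.89, 6.91 and 2.28, above the Type-1 neurons by less than 4-fold, while Slc38a2 was inside the range at 16.6 FPKM against 11.2, 3.05 and 34.7. Of 4 measured genes of glutamate release, 0 were above and 1 (25%) below by 4-fold, beside 7.36% and 16.1% of all genes. Their median difference was 0.94. None of the 13 genes for acetylcholine, monoamine and nitric oxide signalling had a fragment in the Type-2 neuron.

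Reads that may be shared between libraries were also described for this contrast. Gfra1 and the RIKEN gene 9930012K11Rik were nearly private to the Type-2 library, with 10000 fragments or more there and no other library above 1% of that count. For this pair the median share found in samples 5, 6 and 7 was 0.0427%, 0% and 0.127% of the Type-2 count. The pair was picked by the 1% limit, so a low share was fixed in advance. Slc6a5 fragments in samples 5 and 7 were at 0.049% and 0.147% of the Type-2 count. Gad1 fragments were at 0.0426% in sample 5 and 0.324% in sample 7. Whether these fragments came from the Type-2 library was not tested. No gene was private to sample 5, 6 or 7 by the same limits, so the reverse share was not measured.

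**Figure D2:**
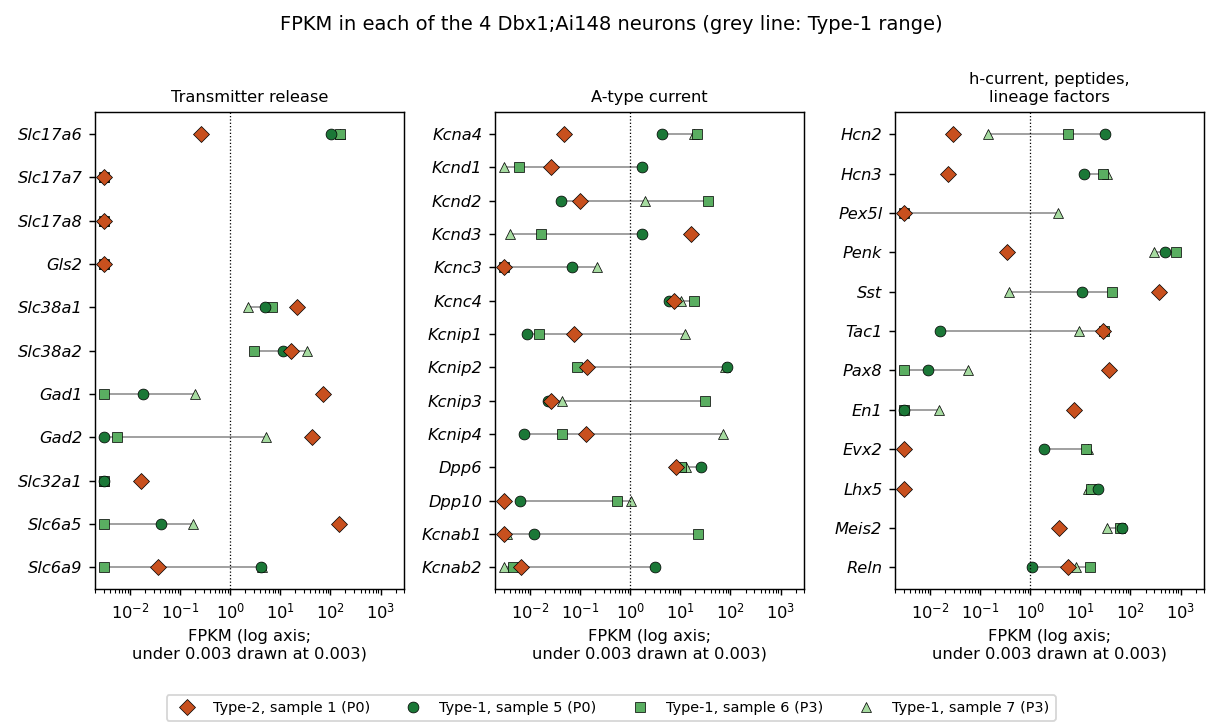
FPKM on a log axis for genes of transmitter release (left), the A-type current (middle) and the h-current, peptides and lineage factors (right), with 1 orange diamond for the Type-2 neuron, green symbols for the 3 Type-1 neurons and a grey line over their range; values under 0.003 are drawn at 0.003 and the dotted line is 1 FPKM. The Type-2 diamond stands to the right of the Type-1 range for Slc6a5 (146 FPKM) and Gad1 (71.8 FPKM) and to its left for Slc17a6 (0.26 FPKM) and Penk (0.343 FPKM), and it lies within the range for most genes of the A-type current.

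By the range rule, genes of the A-type current did not separate the classes as a group. Their summed level was nonetheless lower, at 32.7 FPKM in the Type-2 neuron and 128, 140 and 209 FPKM in samples 5, 6 and 7. At 1 FPKM or more the Type-2 neuron held 3 of these genes, against 7, 6 and 8. Of 13 measured members, 1 was above the range and 1 below, beside 7.36% and 16.1% of all genes, and the median difference was -1.15. The gene below was Kcna4, whose product Kv1.4 is a fast inactivating pore subunit. It had 5 fragments in the Type-2 neuron (limits 1.62 to 11.7) and 748, 3262 and 2368 in samples 5, 6 and 7, or 0.0484 FPKM against 4.23, 21.4 and 19.1 (distance -2.32). The gene above was Kcnd3, which encodes the A-type pore subunit Kv4.3, at 16.4 FPKM in the Type-2 neuron against 1.72, 0.0166 and 0.00406 (distance 2.68). Its relative Kcnd2 (Kv4.2) was inside the range at 0.0998 FPKM, because the Type-1 neurons themselves ran from 0.0424 in sample 5 to 35.3 in sample 6, and Kcnd1 was near 0 in all but sample 5, where it was at 1.7 FPKM. The Type-1 neurons thus differed among themselves in Kv4 transcripts. The auxiliary KChIP genes also differed from neuron to neuron. Kcnip2 was at 85.1 and 78.8 FPKM in samples 5 and 7 but at 0.0864 in sample 6, Kcnip3 at 31.2 FPKM in sample 6 alone, and Kcnip1 and Kcnip4 at 12.2 and 72.5 FPKM in sample 7 alone. The Type-2 neuron had 10 or 11 fragments for Kcnip1, Kcnip2 and Kcnip4 and 2 for Kcnip3. Kcnc4 (Kv3.4) was inside the range at 7.61 FPKM against 5.88, 18.7 and 10.3. Dpp6, an auxiliary subunit of Kv4 channels, was at 8.12 FPKM against 25.8, 10.1 and 12.8, just under the Type-1 neurons.

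Of the h-current genes, which encode HCN channels opened by hyperpolarisation, Hcn2 and Hcn3 were lowest in the Type-2 neuron. Hcn3 had 2 fragments in the Type-2 neuron and was at 0.0225 FPKM against 12.1, 28.3 and 33.5 (distance -3.68). Hcn2 was at 0.0293 FPKM against 31.6, 5.65 and 0.146, so sample 7 also held little of it, and Hcn4 had no fragment in any of the 4 neurons. The accessory gene Pex5l (TRIP8b), which sets HCN channel trafficking, had fragments in sample 7 only. The list held 4 measured genes, 0 above the range by 4-fold and 1 (25%) below, beside 7.36% and 16.1% of all genes.

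Peptide genes held the largest contrast below the range among the named genes. Penk, the precursor of the enkephalins, had 12 fragments in the Type-2 neuron (limits 6.2 to 21), or 0.343 FPKM, against 492, 799 and 290 FPKM in samples 5, 6 and 7 (distance -7.76). Sst, the somatostatin precursor and a marker of a preBötC population, was the one peptide gene above the range, at 375 FPKM against 10.8, 41.8 and 0.378 (distance 3.13). Chga and Chgb, granins of dense core vesicles, were at 0.204 and 0.188 FPKM in the Type-2 neuron. Across samples 5, 6 and 7 Chga was at 58.6, 46.7 and 148 FPKM and Chgb at 75.8, 38.8 and 45.3. The granin Scg2 was at 9.98 FPKM against 108, 109 and 137. Tac1, the precursor of substance P, did not follow the classes, with 28.6 FPKM in the Type-2 neuron and 0.0161, 30.1 and 9.39 in the Type-1 neurons. In all, 1 of 12 measured peptide genes (8.33%) was above and 4 (33.3%) below, beside 7.36% and 16.1% of all genes. Their median difference was -1.19.

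Of 20 measured transcription factors that mark interneuron lineages, 3 (15%) were above the range and 2 (10%) below, beside 7.36% and 16.1% of all genes. Dbx1 and Evx1 had no fragment in any of the 4 libraries; Dbx1 is a gene of dividing precursors. Pax8, a partner of Pax2 in inhibitory interneurons, was at 36.8 FPKM in the Type-2 neuron and at 0.00901, 0 and 0.0578 in samples 5, 6 and 7 (distance 5.16). En1, which marks a class of inhibitory ventral interneurons, was at 7.41 FPKM against 0, 0 and 0.0148 (416 fragments against 0, 0 and 1). Zfhx3, a large zinc finger homeobox factor, was at 3.59 FPKM against 0.0026, 0.00151 and 0.0594. On the other side Lhx5, a LIM homeobox factor, had no fragment in the Type-2 neuron, which allows up to 3 counts, against 22.7, 16.1 and 14.2 FPKM in the Type-1 neurons. Meis2, a TALE homeobox factor, was at 3.71 FPKM against 67.5, 61.9 and 33.5. Evx2, which is expressed with Evx1 in excitatory neurons of the Dbx1 lineage, was at 0 FPKM against 1.89, 12.8 and 14.1, and Pax2 at 0 FPKM against 6.81, 9.13 and 2.2; both lay below the range by less than 4-fold. Lhx1 was at 2.39 FPKM, next to the 2.48 FPKM of sample 7 and under the 30.9 and 82.2 of samples 5 and 6. Hoxa4 and Hoxc4, which are expressed in the caudal hindbrain and spinal cord, had 2 fragments each in the Type-2 neuron. In samples 5, 6 and 7 Hoxa4 reached 22.2, 17.7 and 35.1 FPKM and Hoxc4 3.31, 3.81 and 6.07 FPKM. Of 8 measured Hox genes 0 were above the range and 2 (25%) below, beside 7.36% and 16.1% of all genes.

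In the list of preBötC marker genes, which leaves out Sst, no gene differed by 4-fold. Sst, counted with the peptide genes above, did pass that limit. Cdh9, a cadherin that marks preBötC neurons, was at 172 FPKM in the Type-2 neuron and at 11.4, 3.34 and 56.4 in samples 5, 6 and 7, above the range by 1.59. Reln, the secreted glycoprotein reelin, was inside the range at 5.56 FPKM against 1.1, 15.8 and 8.05. Tacr1, the substance P receptor, and Oprm1, the µ-opioid receptor, had 2 and 4 fragments in the Type-2 neuron. Tacr1 was at 14 FPKM in sample 7 alone and Oprm1 at 6.19 and 2.36 FPKM in samples 6 and 7. Of 6 measured members 0 were above and 0 below by 4-fold, beside 7.36% and 16.1% of all genes.

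Receptors for the inhibitory transmitters differed by subunit. Gabra5, the α5 subunit of the GABA-A receptor, was below the range, at 0.251 FPKM in the Type-2 neuron and at 49.6, 27.8 and 126 FPKM in samples 5, 6 and 7. Gabra5 overlaps another gene on chromosome 7, and whether counting used strand is not given in the sources used here, so its value is uncertain. Glrb, the β subunit of the glycine receptor, had 20 fragments in the Type-2 neuron (limits 12.2 to 30.9), or 0.201 FPKM, against 106, 97.6 and 112 (distance -6.36). Its Type-1 values were close together, yet Glrb was also at 0.13, 0.124 and 0.0803 FPKM in the CD-1 neurons samples 2, 3 and 4. Gphn, the scaffold gephyrin of inhibitory synapses, was inside the range at 30.7 FPKM against 27.7, 23.2 and 49.3. Of 18 measured genes, 1 (5.56%) was above and 4 (22.2%) below, beside 7.36% and 16.1% of all genes, with a median difference of -1.57. The potassium-chloride cotransporter Slc12a5 (KCC2) was at 0.0188 FPKM against 7.59, 3.01 and 2.52 and the importer Slc12a2 (NKCC1) inside the range, and 0 of 4 chloride transporter genes passed the 4-fold limit.

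None of 18 ionotropic and none of 5 metabotropic glutamate receptor genes was outside the range by 4-fold. Of all genes 7.36% were above and 16.1% below by that limit, so few calls would be met in lists of this size. By any amount, 5 ionotropic genes were above and 7 below, and 1 metabotropic gene was above and 3 below, beside 21.6% and 37.3% of all genes. Gria4, an AMPA receptor subunit, was at 97.6 FPKM in the Type-2 neuron against 29.3, 35.9 and 57.3, while Gria2, which makes AMPA receptors impermeable to calcium, was inside the range at 43.6 FPKM against 40.8, 73 and 110. Among modulator receptors 2 of 14 (14.3%) were above and 0 below, beside 7.36% and 16.1% of all genes. Htr2c, a serotonin receptor, was at 8.84 FPKM against 0, 0.034 and 0.025, and Hcrtr2, an orexin receptor, at 4.17 FPKM against 0.00443, 0 and 0.0885.

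Voltage-gated and leak channel genes differed singly. Cacna2d3, an α2δ subunit of calcium channels, was at 86 FPKM in the Type-2 neuron and at 0.0438, 0 and 0.107 in samples 5, 6 and 7 (distance 6.30), the largest distance among channel genes in the lists. Cacnb2, a β subunit, was at 28.7 FPKM against 0.0103, 1.07 and 5.03. In that list 2 of 12 calcium channel genes (16.7%) were above and 0 below, beside 7.36% and 16.1% of all genes. Among other potassium channel genes 4 of 24 (16.7%) were above and 1 (4.17%) below. Kcnh7, an ERG channel, was at 36.8 FPKM against 0.00717, 0 and 1.05, and Kcna6 (Kv1.6) at 54.1 FPKM against 0.0184, 3.06 and 0.0393. Abcc8, the SUR1 subunit of ATP-sensitive channels, was at 84.2 FPKM against 3.76, 0.00393 and 0.0529, and Kcnt2, a sodium-activated channel, at 23.5 FPKM against 3.01, 0.373 and 0.1. Kcnk9, the leak channel TASK-3, was the one below, at 0.0304 FPKM against 27.3, 9.34 and 4.47.

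Of the genes for persistent and calcium-activated inward currents, 1 of 15 (6.67%) was above and 2 (13.3%) below, beside 7.36% and 16.1% of all genes. Trpc7, a TRPC cation channel, had 252 fragments in the Type-2 neuron and none in the others, or 3.04 FPKM (distance 2.01, at the edge of the rule). Of the sodium channel pore genes, Scn1a was at 75.1 FPKM against 1.12, 17.4 and 19.2, and Scn2a was inside the range at 24.8 FPKM against 16.9, 29.8 and 17.4. Nalcn, the sodium leak channel, had 1 fragment in the Type-2 neuron and 3 in sample 5, against 7.44 and 8.12 FPKM in samples 6 and 7. Of the sodium-potassium pump genes, 2 of 6 (33.3%) were below and 0 above, beside 16.1% and 7.36% of all genes. These were the β subunits Atp1b2, at 0.114 FPKM against 10.1, 11 and 15.3, and Atp1b3, at 4.72 FPKM against 62.7, 95.5 and 71.6.

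**Figure D3:**
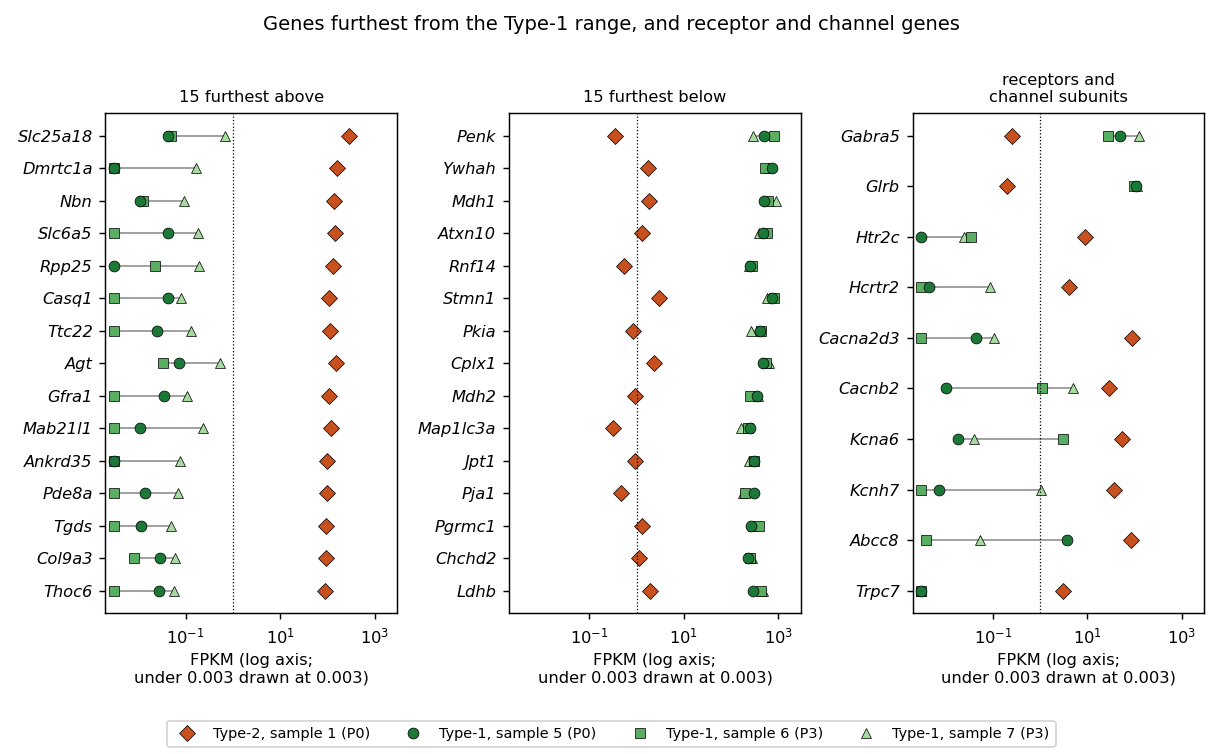
FPKM on a log axis in the 4 neurons for the 15 named genes furthest above the Type-1 range (left), the 15 furthest below (middle) and 10 receptor and channel genes (right), with the same symbols for each neuron in all panels and values under 0.003 drawn at 0.003. On the left the Type-2 neuron is between 88.1 and 283 FPKM and every Type-1 neuron is under 1 FPKM, and in the middle the Type-2 neuron is between 0.317 and 2.94 FPKM and every Type-1 neuron is above 100 FPKM.

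The genes furthest above the range, over all genes with an established symbol, were present in the Type-2 neuron and nearly absent from the 3 Type-1 neurons. Slc25a18, a mitochondrial glutamate carrier, led at 283 FPKM against 0.0429, 0.0499 and 0.672 (distance 7.41). Dmrtc1a followed at 157 FPKM against 0, 0 and 0.168, and it has near-identical copies on chromosome X, so its value is uncertain. Then came Nbn, of DNA break repair, at 137 FPKM against 0.0108, 0.0125 and 0.0922, and, after Slc6a5, Rpp25, an RNase P subunit, at 131 FPKM against 0, 0.0223 and 0.192. Casq1, the calcium store protein calsequestrin of skeletal muscle, was at 108 FPKM against 0.042, 0 and 0.0798. Gfra1, the GDNF co-receptor, was at 105 FPKM against 0.0349, 0 and 0.107. The other genes of this group, Ttc22, Agt, Mab21l1, Ankrd35, Pde8a, Tgds, Col9a3 and Thoc6, were between 88.1 and 149 FPKM in the Type-2 neuron and reached at most 0.535 FPKM in a Type-1 neuron. The other libraries differed here too, and Slc25a18 and Agt were at 254 and 251 FPKM in sample 3.

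The 15 named genes furthest below the range were led by Penk. Next came Ywhah, a 14-3-3 protein, at 1.76 FPKM in the Type-2 neuron against 752, 527 and 604 in samples 5, 6 and 7. Mdh1 and Mdh2, the cytosolic and mitochondrial malate dehydrogenases, were at 1.88 and 0.945 FPKM. In the Type-1 neurons Mdh1 was at 499, 590 and 898 FPKM and Mdh2 at 352, 257 and 370. Stmn1, the microtubule regulator stathmin, was at 2.94 FPKM against 730, 799 and 566, and Cplx1, the complexin of fast vesicle fusion, at 2.28 FPKM against 464, 556 and 647. Map1lc3a, an autophagosome protein, had 8 fragments, and its value was 0.317 FPKM against 251, 227 and 166. Chchd2 and Ldhb were at 1.13 and 1.91 FPKM in the Type-2 neuron. Chchd2 was between 228 and 318 FPKM in the other 9 neurons of the series and Ldhb between 207 and 672.

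The lists of vesicle and structural neuronal genes also lay more below than above. Of 33 synaptic vesicle genes, 14 were below and 2 above, beside 16.1% and 7.36% of all genes, with a median difference of -1.86. Vamp2, the vesicle SNARE, was at 12.1 FPKM against 258, 286 and 207, and Napb, which recycles SNAREs, at 0.298 FPKM against 141, 108 and 118. The 2 above were active zone genes, Rims2 at 70.5 FPKM against 2.41, 4 and 2.34 and Unc13a at 17.7 FPKM against 0.872, 2.67 and 0.358. Snap25, the membrane SNARE, was at 130 FPKM against 328, 276 and 483, under the range by 1.08. Of 24 genes of axon growth and cytoskeleton, 9 were below and 0 above, with a median difference of -1.70. Tubb3, the neuronal β-tubulin, was at 23 FPKM against 1678, 652 and 1074, and Nefl, the light neurofilament, at 0.263 FPKM against 114, 39.6 and 132. Not all such genes were low. Napa, the close relative of Napb, was inside the range at 133 FPKM against 77, 90.1 and 170, and Tmsb10 at 108 FPKM against 80.2, 171 and 186.

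Calcium sensors showed 6 (40%) below and 2 (13.3%) above of 15, beside 16.1% and 7.36% of all genes. Hpca, the neuronal sensor hippocalcin, was at 0.16 FPKM against 84.3, 118 and 87, and Camk4, a calcium-activated kinase, at 0.0717 FPKM against 35, 21.7 and 36.8. Necab1, an EF-hand protein, was at 12.1 FPKM in the Type-2 neuron against 0.00521, 0 and 0.0149, while its relative Necab2 was at 0.0223 FPKM against 28.2, 15.5 and 18.5. Camk2g, the γ subunit of CaM kinase II, was at 81.9 FPKM against 5.07, 2.15 and 5.87. Members of this list thus lay on both sides of the range.

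For wiring genes the share below the range was under the 16.1% of all genes in each of the lists given here, and 7.36% of all genes were above. Of 34 synaptic adhesion genes 1 (2.94%) was above and 2 (5.88%) below, with a median difference of 0.11, where that of all genes was -1.06. Nrxn3, a presynaptic neurexin, was at 111 FPKM in the Type-2 neuron against 0.0172, 0 and 4.82, and Cadm1 and Cdh13 were below, with 12 and 8 fragments. Of 19 axon guidance genes 1 (5.26%) was above and 2 (10.5%) below. Sema3a, a secreted repellent, was at 24.5 FPKM against 0.00984, 0 and 0.0365, and the receptor Plxna4 at 0.0796 FPKM against 11.1, 9.54 and 28.9 and Neo1 at 0.0107 FPKM against 11.4, 3.6 and 12.2. Clustered protocadherins, of which each neuron expresses its own small set, gave 3 (18.8%) above and 1 (6.25%) below of 16. Pcdha6, Pcdhb17 and Pcdhga12 were at 32.1, 19 and 13.3 FPKM in the Type-2 neuron and had at most 7 fragments in a Type-1 neuron, and Pcdhgc4 had 4 fragments there against 2435, 1955 and 2823. Genes of this cluster share exons, and how such fragments were assigned is not given in the sources used here.

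Nuclear-encoded subunits of the respiratory chain numbered 15 (19.5%) below and 0 above of 77, beside 16.1% and 7.36% of all genes. Their median difference was -0.74. Ndufs7, a complex I subunit, was at 0.435 FPKM against 104, 147 and 243, whereas Cox8a of complex IV was inside the range at 577 FPKM against 555, 585 and 617. Of 85 cytoplasmic ribosomal protein genes 10 (11.8%) were below and 2 (2.35%) above, and by less than 4-fold 21 were below and 33 above. Their median difference was 0.04, where that of all genes was -1.06. Rps4x was at 0.831 FPKM against 85.3, 81.1 and 137, Rpl41 at 621 FPKM against 97.2, 110 and 96.9, and Rps2 inside the range at 203 FPKM against 232, 133 and 115. Ribosomal protein genes have many processed copies, so their values depend on how fragments matching several places were counted. Of 13 mitochondrially encoded genes 1 was below, mt-Nd4l, and 0 above by 4-fold, while 6 were above by less, with a median difference of 1.52. In the respiratory chain and ribosomal lists some members were near 0 and others at the Type-1 level.

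Immediate early genes, which neurons switch on with activity and handling, gave 3 (16.7%) below and 0 above of 18. Over all genes the shares were 16.1% below and 7.36% above, so the share below was near that of all genes. Fos was at 0.457 FPKM in the Type-2 neuron against 146, 94.6 and 16.8 in samples 5, 6 and 7, Jund at 0.112 FPKM against 10.7, 21.7 and 19.1 and Dusp1 at 0.0141 FPKM against 6.86, 53.3 and 5.9. None of the 24 listed genes reached 1 FPKM in the Type-2 neuron, against 13, 11 and 7 of them in the Type-1 neurons.

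**Figure D4:**
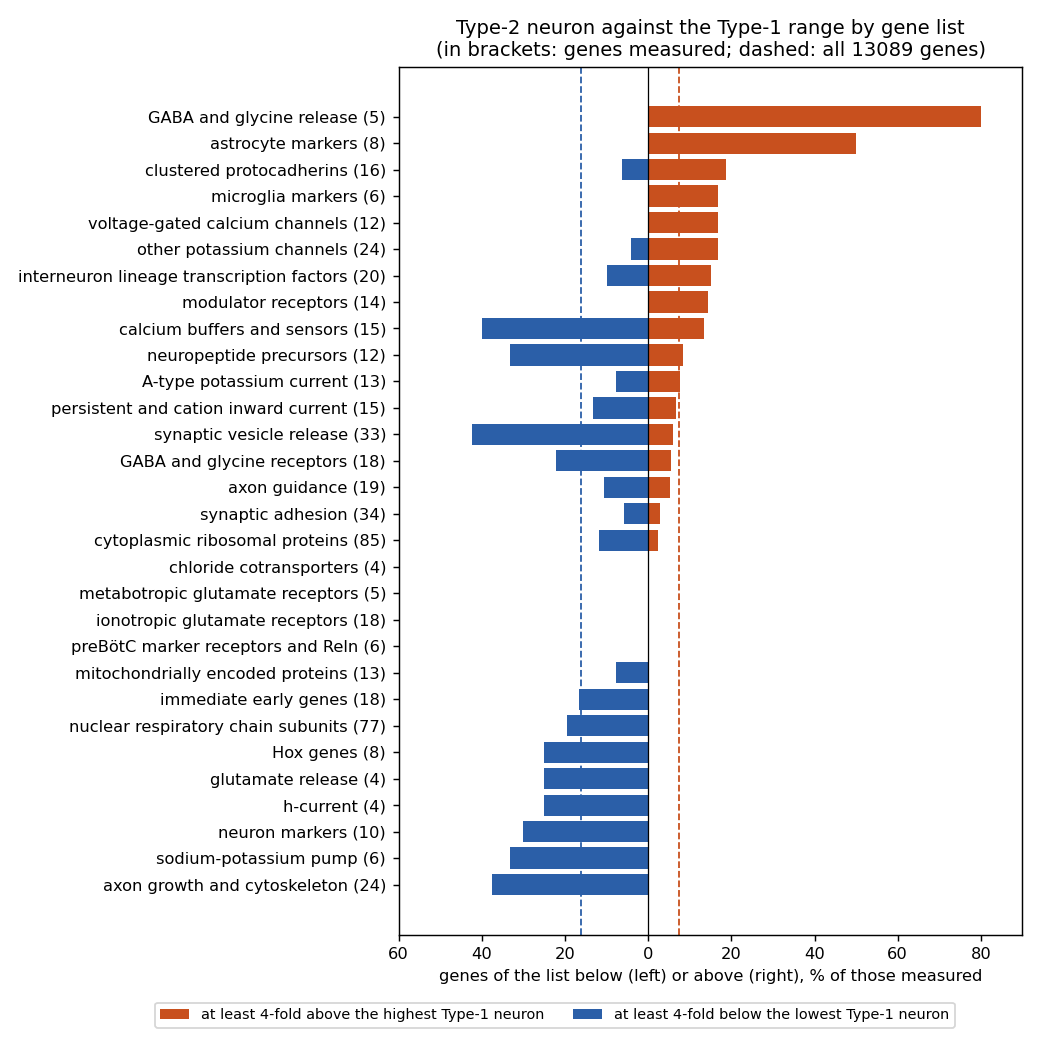
For each gene list with 4 or more measured genes, the percent of its measured genes at least 4-fold above the highest Type-1 neuron (orange, to the right) and at least 4-fold below the lowest (blue, to the left), with dashed lines at the 7.36% and 16.1% of all 13089 genes. GABA and glycine release (4 of 5) and astrocyte markers (4 of 8) extend furthest to the right, and synaptic vesicle release (14 of 33) and calcium buffers and sensors (6 of 15) furthest to the left.

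Markers of other cells were unevenly spread over the 4 libraries. Of 12 astrocyte markers 8 were measured, 4 of them (50%) above the range and 0 below, beside 7.36% and 16.1% of all genes. Their median difference was 3.34. The summed level of the list was 2223 FPKM in the Type-2 neuron and 563, 194 and 594 in samples 5, 6 and 7. Agt, angiotensinogen, was at 149 FPKM against 0.0722, 0.0336 and 0.535, and Fabp7, the fatty acid binding protein of radial glia and astrocytes, at 1511 FPKM against 151, 42.7 and 141. Slc1a3, the glutamate transporter GLAST, was at 41.1 FPKM against 2.6, 0.0223 and 0.0958, and Slc4a4, a bicarbonate transporter, at 44.2 FPKM against 0.561, 0 and 2.93. The defining markers Aqp4, Gfap, Gja1, Slc1a2 and Aldh1l1 had 8 fragments or fewer in the Type-2 neuron. S100b and Hes5, glial genes chosen after their values were seen, were at 126 and 47.2 FPKM and at no more than 0.975 FPKM in any of the 3 Type-1 neurons. Whether astrocyte RNA has a part in the genes above the range was not tested.

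Microglia markers summed to 113 FPKM in the Type-2 neuron and 121, 75.4 and 1.11 FPKM in the Type-1 neurons. C1qa alone of 6 measured (16.7%, beside 7.36% of all genes) was above the range, at 90.3 FPKM against 7.72, 0.824 and 0.225. Of the microglia defining genes Tyrobp and P2ry12 had 6 and 7 fragments in the Type-2 neuron. Of 10 oligodendrocyte lineage markers 6 were at 0 and the sum was 0.511 FPKM. Tek was the only 1 of 8 endothelial markers with a fragment, and all 6 mural, 4 ependymal and 5 erythroid markers were at 0. The part of these cells in the result was not tested.

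The 2 directions of difference had a different make-up. Of the 963 genes above the range, 398 (41.3%) were under 1 FPKM in all 3 Type-1 neurons, and the median level was 51.7 FPKM in the Type-2 neuron and 1.44 as the mean of the Type-1 neurons. Protein-coding genes were 70.3% of those with an annotated type and long non-coding RNAs 19.9%, against 80.8% and 10% over all genes measured. Of the 2109 genes below, 1905 (90.3%) were under 1 FPKM in the Type-2 neuron, and the medians were 0.0816 and 22.6 FPKM. Of these, 94.1% were protein coding and 0.913% long non-coding. The median gene length was 3590 bases above the range, 3575 below and 3809 over all genes. Most genes below the range were thus close to undetected in the Type-2 library.

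That pattern reached genes of every level. Of 2070 genes between 10 and 100 FPKM in all 3 Type-1 neurons, 44.5% were under 1 FPKM in the Type-2 neuron, and of 372 genes at 100 FPKM or more in all 3, 9.95% were. In the reverse direction, of the 786 genes at 100 FPKM or more in the Type-2 neuron, 12.3%, 13% and 12.7% were under 1 FPKM in samples 5, 6 and 7, and 5.73% in all 3. Fewer transcripts of a gene in this neuron and failure to recover transcripts that were there cannot be told apart.

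The CD-1 neurons, set against the same 3 Type-1 neurons, show what 1 other neuron of the series gives. These comparisons all share samples 5, 6 and 7. Sample 4, which is itself labelled Type-1, had 1416 genes above and 1979 below, more in sum than the Type-2 neuron. In sample 4 the microglia markers summed to 15398 FPKM and the neuron markers to 59.9 FPKM, against 113 and 804 FPKM in the Type-2 neuron. By the study's account samples 1 to 4 had the least concentrated cDNA. Whether either bears on these counts was not tested. Samples 2 and 3 had 901 and 789 above and 1710 and 1800 below, and sample 9 had 636 and 1025. Samples 8 and 10 had 1075 and 762 above but only 424 and 344 below. The share of genes at 10 to 100 FPKM in the 3 Type-1 neurons that were under 1 FPKM was 44.5% in the Type-2 neuron, between 32.4% and 35.9% in samples 2, 3 and 4, 16.3% in sample 9, and 6.76% and 4.83% in samples 8 and 10. By total count the Type-2 neuron was therefore not set apart from sample 4, the Type-1 neuron of the other mouse line. The Type-2 neuron shared its P0 age with sample 5. By distance the nearest Type-1 neuron was sample 5 for 321 of the genes above and 748 of those below. It was sample 6 for 221 and 666 and sample 7 for 421 and 695.

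**Figure D5:**
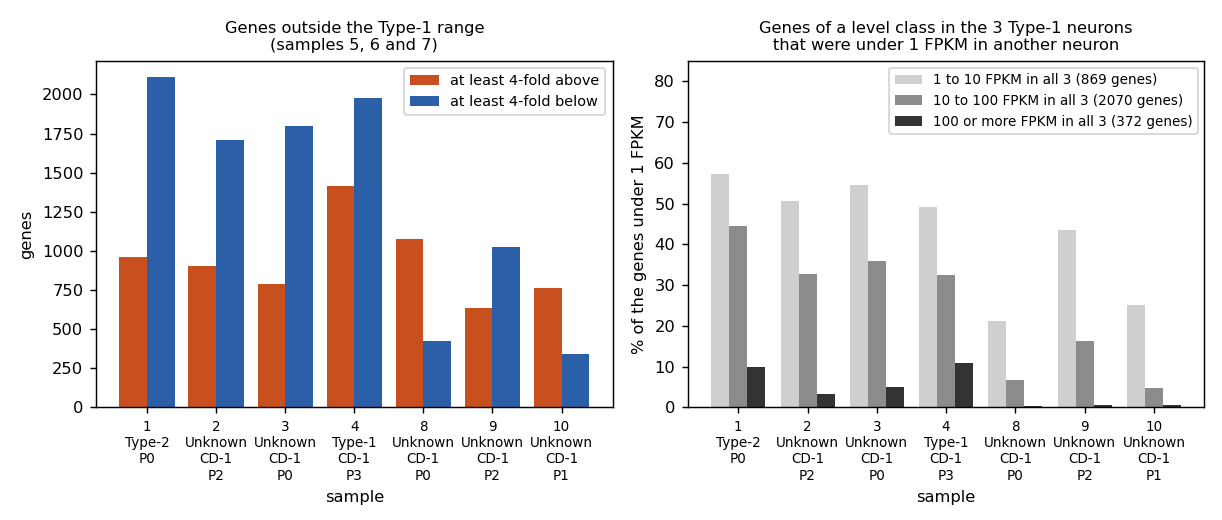
On the left, the number of genes at least 4-fold above (orange) and below (blue) the range of samples 5, 6 and 7 for the Type-2 neuron and for each CD-1 neuron. On the right, the percent of genes under 1 FPKM in each of these neurons, for 869, 2070 and 372 genes at 1 to 10, 10 to 100 and 100 FPKM or more in all 3 Type-1 neurons. Samples 1, 2, 3 and 4 have 1710 to 2109 genes below and samples 8 and 10 have 424 and 344.

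Widening the Type-1 range to sample 4 changed single genes as well as counts. With that CD-1 neuron in the Type-1 range, 851 genes were above and 1012 below, and genes above made up 45.7% of all calls, where they made up 31.3% with the 3 Dbx1;Ai148 neurons. Slc17a6 (0.157 FPKM in sample 4), Kcna4 (0.0141), Hcn3 (0.703), Glrb (0.0803), Lhx5 (0.0126), Tubb3 (1.07) and Cplx1 (2.3) were then no longer below the range by 4-fold. Slc6a5, Gad1, Gad2, Sst, Pax8, En1, Kcnd3 and Penk kept their side and their 4-fold distance. In sample 4 the neuron markers summed to 59.9 FPKM and the microglia markers to 15398 FPKM. Whether this bears on the genes that changed was not tested.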

How the data were processed

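Cytoplasm of each patch-clamped neuron was converted to cDNA with SMART-Seq v4 and sequenced as paired reads. The authors trimmed the reads, aligned them with STAR 2.7.7a to GRCm38 after FastQC 0.11.8, and counted fragments per gene with featureCounts. Options for strand and for fragments matching several places are not given in the sources used here. For 55367 genes the authors deposited FPKM, raw fragment counts and gene lengths. The deposited FPKM equals the count per kilobase and per 1e+06 fragments counted on genes, with 0 difference on recomputation.

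From these, log2(FPKM + 1) of the Type-2 neuron was set against the lowest and highest of the 3 Type-1 neurons, for genes that reached 1 FPKM in any of the 4. The rule was tried on simulated counts with large known changes in abundant genes. No failed recovery was simulated, so this does not show how the rule behaves in these data. No p-value was computed. A count of 0 allows 3 counts, or 0.14 per 1e+06 fragments in the Type-2 library and 0.0819 to 0.117 in the Type-1 libraries. The members, gene lists and tests were chosen with earlier results of these data known. Named genes are the 15 furthest from the range on each side at 10 FPKM or more (predicted, RIKEN, pseudogene and mitochondrial symbols left out), all members of the transmitter and current lists, and from every other list up to 4 called genes a side and the 2 most abundant inside the range; other members are given with their lists, and S100b, Hes5, Xist, Cdh9, Scn1a, Scn8a, Gria4, Evx2, Lhx1, Pax2 and further genes under the 4-fold limit were chosen after their values were seen. Some genes counted in the lists are not reported here. Positions are from GENCODE M21, which held 53365 of the symbols, and promoters from RefSeq. The scripts ran in Python 3.11.15 with SciPy 1.17.1, pandas 2.3.3 and NumPy 2.4.6, and figures were drawn in Matplotlib 3.10.9. Alternatives were TPM, median-of-ratios scaling, another pseudocount, filters and folds, leaving out each Type-1 neuron, P0 neurons alone, thinning, removal of counts of 1 or 2, and adding the CD-1 Type-1 neuron.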

Additional observations from a re-analysis of the deposited data

How the results depend on the processing

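With 1 Type-2 neuron, the counts rest on a single library, and leaving it out leaves no comparison. Under every alternative run, more genes were below the range than above. With TPM (1120 above, 2641 below), a filter of 10 FPKM (848 and 1967), no filter (963 and 2109), thinning to the smallest total (963 and 2115) and removal of counts of 1 or 2 (964 and 2117), both counts stayed within 1.5 times the 963 and 2109 reported. Genes above made up 28.4% of calls with median-of-ratios scaling (854 and 2156), 27.4% with a pseudocount of 0.1 (1132 and 2996), 38.3% with a fold of 2 (1837 and 2960) and 29.6% with a fold of 16 (271 and 643). Leaving out each Type-1 neuron gave 1158 to 1240 above, 2592 to 2863 below and a share of 30.2% to 30.9%. With P0 neurons alone, where the range is 1 neuron, 1721 genes were above and 4669 below (26.9%). A narrower range can only add calls among the same genes. Adding the CD-1 Type-1 neuron gave 1012 below and 45.7%, as a wider range can only remove calls among the same genes.

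Of 112 named genes past the 4-fold limit, all kept their direction in every alternative except the added CD-1 neuron. With that neuron 84 kept it, of which 73 stayed past the limit, and the others lay inside the wider range. For several alternatives this outcome was fixed in advance. Leaving out Type-1 neurons, or keeping P0 alone, can only lengthen the distance of such a gene. A changed filter or fold leaves the distance as it was. Those settings are therefore no check on the direction of these genes. Median-of-ratios scaling took Trpc7 and Zfhx3, among others, under the limit, and a fold of 16 kept 67. No value changed sign. No paired analysis was possible because there is only 1 Type-2 neuron. Depth limits what the low counts can show: a gene at 0 in the Type-2 library may hold up to 3 counts.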

Other observations

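Several genes that set the Type-2 neuron apart from the 3 Type-1 neurons were also present in single CD-1 neurons of Unknown type. In sample 10 (P1), Gad1 was at 92 FPKM, Gad2 at 34.2, Pax8 at 34.1, En1 at 7.23 and Slc6a5 at 8.6 FPKM, beside 71.8, 43.5, 36.8, 7.41 and 146 FPKM in the Type-2 neuron. The developmental gene Mab21l1 was at 67 FPKM in sample 10 and 116 FPKM in the Type-2 neuron. In sample 3 (P0) Gad1 was at 37.2 and Gad2 at 22.9 FPKM, while Slc6a5 was at 0.0401 and En1 at 0 FPKM. Slc17a6 was at 230 FPKM in sample 8, the one CD-1 neuron above 2 FPKM, and at 0.157 FPKM in sample 4, which is labelled Type-1. In sample 4 the neuron markers summed to only 59.9 FPKM and the microglia markers to 15398 FPKM. Whether this bears on its Slc17a6 value was not tested. Penk was at 470 FPKM in sample 8 and between 1.94 and 81.8 FPKM in the other CD-1 neurons. These neurons were not compared with the Type-2 neuron by any test.

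Xist, the RNA of X inactivation, was at 8.48 FPKM in the Type-2 neuron and at 0.00456, 1.56 and 2.91 FPKM in samples 5, 6 and 7, and the labels give no sex.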
